A study of Homo sapiens with 14 samples.

Results

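Genes of mesendoderm and definitive endoderm were examined in RNA sequencing libraries made along the path from human embryonic stem cells to pancreatic β-like cells. The 10 genes were NODAL, LEFTY1, LEFTY2, CER1, EOMES, MIXL1, GSC, TBXT, SOX17 and CXCR4. They were chosen by name as genes known for these early stages, and all 10 were found among the 60624 gene identifiers of each library. The deposited levels are in TPM, which expresses a gene's part of all transcripts in a library after division by transcript length. Levels of different genes can therefore be set side by side, while the read depth behind them is unknown.

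All cells came from MEL1, a human embryonic stem cell line with a GFP reporter in 1 INS allele, so every group rests on a single line. There were 14 libraries in 9 groups, and the labels assigned them to 3 batches. Batch 1 held hPSC (undifferentiated cells, kept on feeder cells), DE (definitive endoderm), PP2 (pancreatic progenitors of stepwise differentiation) and SC-β (stem cell-derived β-like cells without an expansion step), with 1 library each. Batch 2 held ePP-P9 and ePP-P21 (progenitors expanded to passages 9 and 21, called ePPs, grown on feeder cells with 1 μM I-BET151, a BET bromodomain inhibitor) and ePP-β (their β-like progeny), with 2 libraries each. Batch 3 held pancreatic progenitors kept for 7 days with DMSO, the solvent, or with 1 μM I-BET151, with 2 libraries each. Stepwise differentiation used 100 ng/ml activin A for its first days, joined at the start by 3 μM CHIR99021, which activates WNT signaling, and then 2.5 μM A83-01, which blocks activin and NODAL receptors. The ePP medium, the medium of the DMSO and I-BET151 groups and the β-cell media contained 10 μM 616452, another inhibitor of TGFβ family receptors. The day on which DE cells were harvested was not given. The sources do not say whether same-group libraries came from separate cultures, so p-values measure only the spread between these libraries.

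NODAL is a secreted ligand of the TGFβ family, and activin A signals through the same receptors. Together with WNT signaling it turns pluripotent cells into mesendoderm, the common forerunner of mesoderm and endoderm, by way of phosphorylated SMAD2 and SMAD3 and their DNA-binding partner FOXH1. Among the genes that this pathway switches on are its own antagonists LEFTY1, LEFTY2 and CER1, and the transcription factors EOMES, MIXL1 and GSC. TBXT, also called brachyury, marks the primitive streak, SOX17 is the defining transcription factor of definitive endoderm, and CXCR4 is the chemokine receptor by which endoderm cells are often sorted.

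Promoter windows from RefSeq (GRCh38.p14, 250 bases before to 50 after the annotated start) were found for 7 of the 10 genes, in 10 windows. The windows of CER1, MIXL1 and GSC are shown because these genes are classical NODAL targets and were high in DE and under 1 TPM in PP2. They lie at chr9:14722684-14722983 (minus strand), chr1:226223414-226223713 (plus strand) and chr14:94770064-94770363 (minus strand), and are written 5′ to 3′ on the strand of the gene. Capitals mark matches, on either strand, to the letters AATNNACA of the FOXH1 motif and CAGAC of the SMAD motif.
CER1: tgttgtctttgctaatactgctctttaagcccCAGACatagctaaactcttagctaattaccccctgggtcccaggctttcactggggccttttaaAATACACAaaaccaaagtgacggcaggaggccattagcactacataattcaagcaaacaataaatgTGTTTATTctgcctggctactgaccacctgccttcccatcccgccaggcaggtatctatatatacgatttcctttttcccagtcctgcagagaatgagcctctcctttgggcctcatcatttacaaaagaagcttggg
MIXL1: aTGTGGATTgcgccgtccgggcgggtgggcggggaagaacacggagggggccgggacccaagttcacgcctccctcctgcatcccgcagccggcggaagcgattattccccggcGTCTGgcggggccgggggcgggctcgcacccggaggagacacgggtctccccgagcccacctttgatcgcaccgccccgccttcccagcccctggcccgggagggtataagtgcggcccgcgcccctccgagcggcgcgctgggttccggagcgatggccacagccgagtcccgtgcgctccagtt
GSC: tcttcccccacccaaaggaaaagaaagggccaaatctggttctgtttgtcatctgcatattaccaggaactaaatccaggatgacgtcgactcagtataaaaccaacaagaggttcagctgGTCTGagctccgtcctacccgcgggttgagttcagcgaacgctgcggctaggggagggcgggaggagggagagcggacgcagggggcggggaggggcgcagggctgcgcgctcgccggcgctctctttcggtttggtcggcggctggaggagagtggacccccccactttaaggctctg

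In the CER1 window the FOXH1 letters began at 154 and 88 bases before the start and the SMAD letters at 218 bases before it. The MIXL1 window held the FOXH1 letters at 249 bases and the SMAD letters at 136 bases before the start, and the GSC window held the SMAD letters at 129 bases before it. Over the 10 windows, the FOXH1 letters were found in 4 and the SMAD letters in 7. The FOXH1 windows were those of CER1, MIXL1 and CXCR4. Different starts of CXCR4 were counted as separate windows, so these windows are not separate genes. Of all 35116 windows of the same length, 11.0% held the FOXH1 letters and 45.3% the SMAD letters. The T-box motif AGGTGTGA, the GSC and OTX motif TAATCC and the GATA motif AGATAA were in 0 of the 10 windows and in 0.98%, 6.36% and 10.3% of all windows. The LHX motif TAATTA was in 1 window against 4.84% of all, and the SOX motif AACAAT in 2 windows against 10.1% of all. The letters of the LHX motif read the same on both strands. A match describes these letters only.

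**Figure D1:**
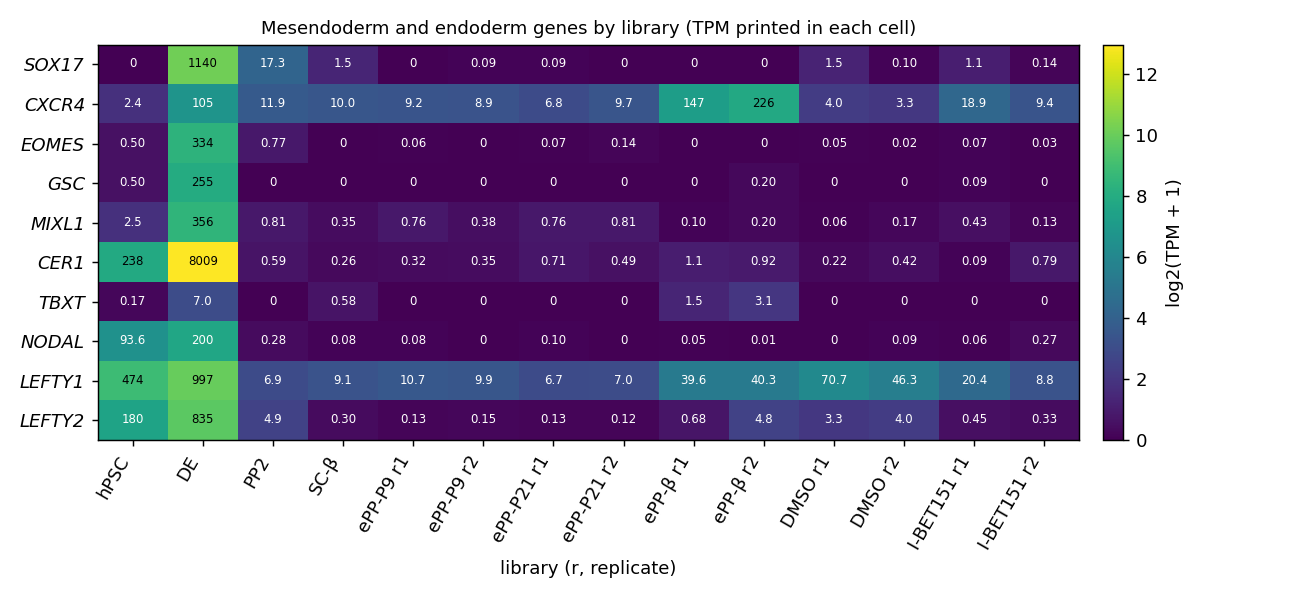
Heat map of the 10 genes (rows) in the 14 libraries (columns, ordered by batch). Colour is log2(TPM + 1) and the printed number is the TPM. The DE column holds the highest level of 9 genes, whereas CXCR4 was highest in ePP-β replicate 2 at 226 TPM, and entries outside hPSC and DE are mostly under 1 TPM for EOMES, GSC, MIXL1, CER1 and NODAL.

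The question of the first comparison was how these genes changed as stem cells became definitive endoderm. All 10 genes were higher in DE than in hPSC by more than 1 log2 unit on the log2(TPM + 1) scale, against 10.8% of the 17807 genes with at least 1 TPM in either library, and 0 were lower, against 16.1%. By more than 3 log2 units, 6 of the 10 were higher, against 1.07% of all these genes. Their median difference was 5.01 log2 units, and that of all genes was -0.04. Each stage had 1 library, so these differences have no test and no replicate check. With a pseudocount of 1, changes at low TPM come out too small. Positions below are those of the whole protein-coding gene in GRCh38, GENCODE release 44.

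NODAL (ENSG00000156574, chr10:70431936-70447951), the ligand, was already at 93.6 TPM in hPSC and reached 200.0 TPM in DE. Its antagonists were likewise present in both libraries. LEFTY1 (ENSG00000243709, chr1:225886282-225911382) was at 474 TPM in hPSC and 997 TPM in DE, and LEFTY2 (ENSG00000143768, chr1:225936598-225941383) was at 180.0 TPM and 835 TPM. CER1 (ENSG00000147869, chr9:14719724-14722733), a secreted antagonist of NODAL, BMP and WNT proteins, was at 238 TPM in hPSC and 8009 TPM in DE. By level, CER1 ranked 3 among all genes of the DE library. The secreted proteins thus started from a high level, and their differences were 1.09 log2 units for NODAL, 1.07 for LEFTY1, 2.21 for LEFTY2 and 5.07 for CER1.

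The transcription factors started from low levels. EOMES (ENSG00000163508, chr3:27715949-27722711), a T-box factor needed for endoderm, was at 0.497 TPM in hPSC and 334 TPM in DE, a difference of 7.81 log2 units. GSC (ENSG00000133937, chr14:94768223-94770113), a homeobox factor of the organizer and anterior mesendoderm, was at 0.50 TPM and 255 TPM, a difference of 7.41. MIXL1 (ENSG00000185155, chr1:226223618-226227060), a homeobox factor of the primitive streak, was at 2.45 TPM and 356 TPM, a difference of 6.69. These 3 genes ranked 8, 10 and 12 among all rises. SOX17 (ENSG00000164736, chr8:54457935-54460892) reached 1140 TPM in DE from a listed 0 in hPSC, so no fold is given, and on the log2(TPM + 1) scale it ranked 1 among all rises. TBXT (ENSG00000164458, chr6:166157656-166168700) stood apart from the other factors, with 0.173 TPM in hPSC and only 7.04 TPM in DE, a difference of 2.78 log2 units. By level, TBXT ranked 10045 in the DE library, where the other 9 genes ranked between 3 and 1394.

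CXCR4 (ENSG00000121966, chr2:136114349-136119177), the surface receptor, was at 2.43 TPM in hPSC and 105 TPM in DE, a difference of 4.95 log2 units that ranked 36 among all rises. The 5 largest rises belonged to SOX17, FGF17, MTCO2P12, DKK4 and GATA6. FGF17, a fibroblast growth factor, was at 0.854 TPM in hPSC and 909 TPM in DE, and GATA6, an endoderm GATA factor, at 0.0594 TPM and 310.0 TPM. DKK4, a WNT antagonist, reached 316 TPM in DE from a listed 0. MTCO2P12 is a nuclear pseudogene of mitochondrial origin, to which reads of mitochondrial RNA can align, and the files give 0 for each of the 37 mitochondrial genes in all 14 libraries. An exact 0 in these files can therefore be a value that was never estimated.

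**Figure D2:**
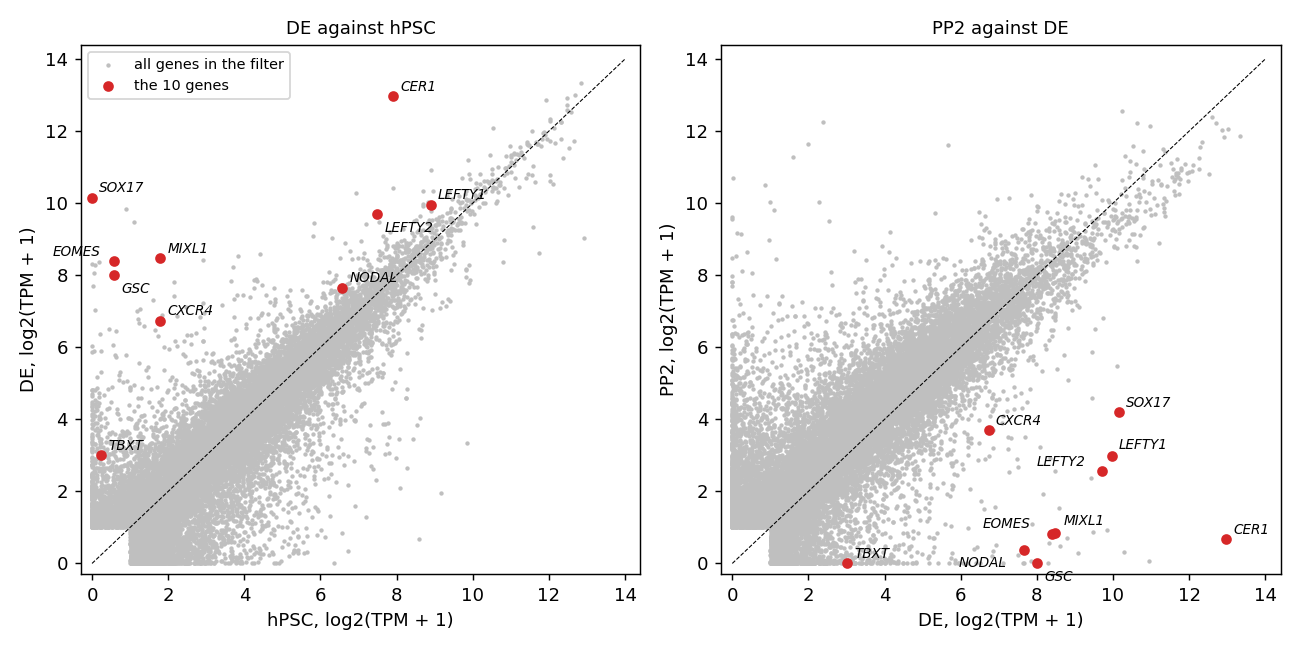
Levels of all genes with at least 1 TPM in either library, as log2(TPM + 1), in DE (vertical) against hPSC (horizontal) on the left and in PP2 (vertical) against DE (horizontal) on the right, with 1 library per stage. Red points are the 10 genes and the broken line is equality. In the left panel all 10 lie above the line by at least 1.07 log2 units, and in the right panel all 10 lie below it by at least 3.01.

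The second comparison asked which of these genes remained once the cells were pancreatic progenitors. All 10 genes were lower in PP2 than in DE by more than 1 log2 unit, against 9.83% of 18578 genes, and all 10 by more than 3, against 1.24%. None was higher, against 27.2%. Their median difference was -7.22 log2 units. All genes had a median of 0.38, which moved to -0.05 after quantile normalization, and all 10 genes stayed lower by more than 1 log2 unit there.

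CER1 had the largest fall of all genes, from 8009 TPM to 0.587 TPM, a difference of -12.3 log2 units. The ligand went with its antagonist, since NODAL was at 0.284 TPM in PP2, a difference of -7.29. MIXL1 was at 0.808 TPM and EOMES at 0.772 TPM in PP2, differences of -7.63 and -7.56. GSC and TBXT were listed at 0 in PP2. A remnant above 1 TPM was seen for 4 genes. SOX17 was at 17.3 TPM in PP2, CXCR4 at 11.9 TPM, LEFTY1 at 6.90 TPM and LEFTY2 at 4.91 TPM, differences of -5.96, -3.04, -6.98 and -7.14 log2 units from DE.

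SOX17 is also a gene of endothelial cells, and genes of endothelium were present in PP2. All 7 genes of an endothelial list (PECAM1, CDH5, TEK, TIE1, ERG, SOX18 and SOX7) were at 1 TPM or more in PP2, with CDH5, a junction protein of endothelium, at 22.3 TPM and TIE1, an endothelial receptor, at 20.9 TPM. Their summed level was 12.5 TPM in hPSC, 32.3 TPM in DE and 92.9 TPM in PP2, and between 0.601 and 9.86 TPM in the other 11 libraries. From DE to PP2 the sum was thus higher while SOX17 was lower. In DE, CDH5 was at 0.235 TPM and TIE1 at 0.0229 TPM, and SOX18, a factor related to SOX17, took 29.9 of the 32.3 TPM, against 15.0 TPM in PP2. Genes of a mesoderm list were also at their highest sum in PP2, at 209 TPM, of which HAND1 took 136 TPM, against 22.2 TPM in hPSC, 18.7 TPM in DE and 103 TPM in SC-β, where SOX17 was at 1.51 TPM. The part of these other cell types in the SOX17 level of PP2 was not tested. In bulk libraries, fewer cells of a type and less RNA per cell cannot be told apart.

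**Figure D3:**
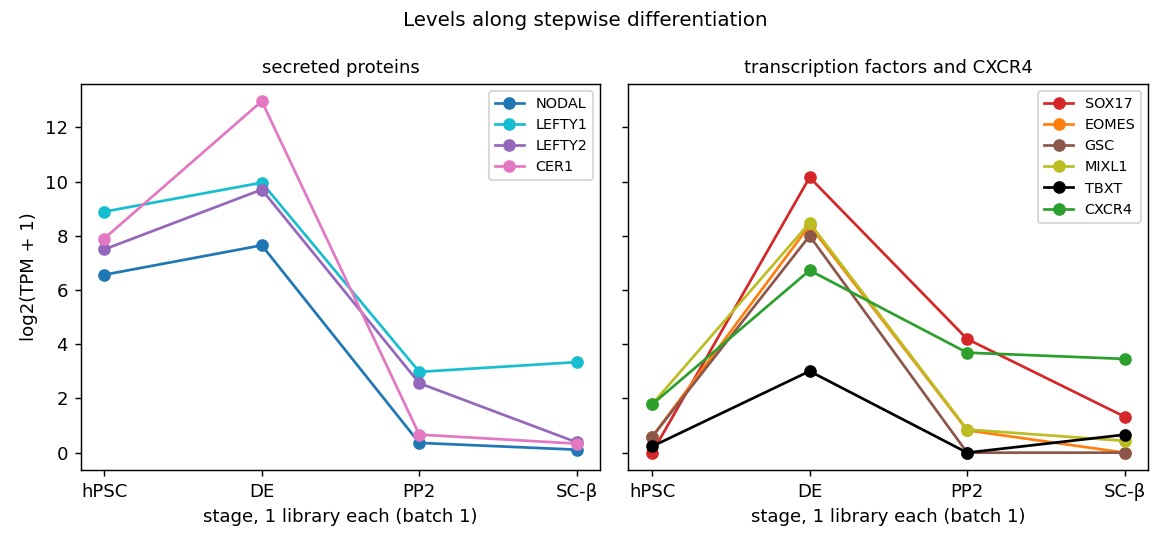
Level of each of the 10 genes, as log2(TPM + 1), in the 4 stages of batch 1 (hPSC, DE, PP2 and SC-β), with 1 library per point. The left panel holds the secreted proteins and the right panel the transcription factors and CXCR4. Every line peaks at DE, the secreted proteins from levels of at least 93.6 TPM in hPSC and the others from 2.45 TPM or less.

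From PP2 to SC-β little of the program was left to change. Only 4 of the 10 genes had at least 1 TPM in either library. SOX17 was at 1.51 TPM and LEFTY2 at 0.302 TPM in SC-β, both lower by more than 1 log2 unit, against 22.1% of 18894 genes, and 0 were higher, against 12.7%. CXCR4 was at 10.0 TPM and LEFTY1 at 9.13 TPM, differences of -0.23 and 0.36 log2 units that stayed under the fold used. All genes had a median of -0.37, or -0.12 after quantile normalization. The difference of CXCR4 became 0.16 after quantile normalization, and that of LEFTY1 became -0.30 when its level was summed with that of LEFTY2.

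LEFTY1 and LEFTY2 need a reservation, since they are near copies of each other. Their transcripts, of 1626 and 2019 bases, aligned over 1202 bases with 96.3% identity, and the genes lie 25215 bases apart on chromosome 1. Of the stretches of 100 bases in the LEFTY1 transcript, 17.4% also occur in LEFTY2. LEFTY1 made up 72.5% of their summed level in hPSC, 54.4% in DE and 58.4% in PP2, and 89.4% to 98.8% in the other 11 libraries. Reads of LEFTY2 can also be assigned to a long noncoding gene of the same strand (ENSG00000248322), with 51.2% of its exon bases in LEFTY2, which was at 145 TPM in hPSC, 680.0 TPM in DE and 4.16 TPM in PP2. The levels of both LEFTY genes are therefore uncertain.

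The wider pathway did not move as these 10 genes did. Of 19 other genes of NODAL and activin signaling, 17 had at least 1 TPM in hPSC or DE, and 4 were higher and 1 was lower in DE, against 10.8% and 16.1% of all genes, with a median difference of 0.18 log2 units. The higher genes were FST, CFC1, SMAD2 and ACVR2A, and the lower gene was SMAD3. FST, or follistatin, which binds activin, was at 12.3 TPM in hPSC and 75.8 TPM in DE, and SMAD3, a signal-carrying SMAD, at 22.8 TPM and 8.65 TPM. TDGF1, the co-receptor of NODAL, was at 468 TPM in hPSC and 439 TPM in DE. FOXH1, the DNA-binding partner of the SMADs, was at 111 TPM and 71.9 TPM.

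In PP2, 6 genes of this list were higher and 6 were lower than in DE, of 17 with at least 1 TPM, against 27.2% higher and 9.83% lower of all genes, with a median of 0.19. The co-receptor and the partner fell with the ligand, TDGF1 to 0.622 TPM, a difference of -8.08, and FOXH1 to 8.39 TPM, a difference of -2.96. Receptors and SMADs went in both directions. The type I receptor ACVR1B was at 18.9 TPM in DE and 60.7 TPM in PP2, and SMAD3 was at 46.7 TPM in PP2, whereas SMAD2 was at 4.66 TPM in PP2, a log2 difference of -1.40. CFC1, a co-receptor related to TDGF1, was at 2.12 TPM in DE and 42.5 TPM in PP2, and FURIN, a protease that processes the NODAL precursor, at 68.4 TPM and 231 TPM. CFC1 has a near-identical neighbouring copy, so its level is uncertain.

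**Figure D4:**
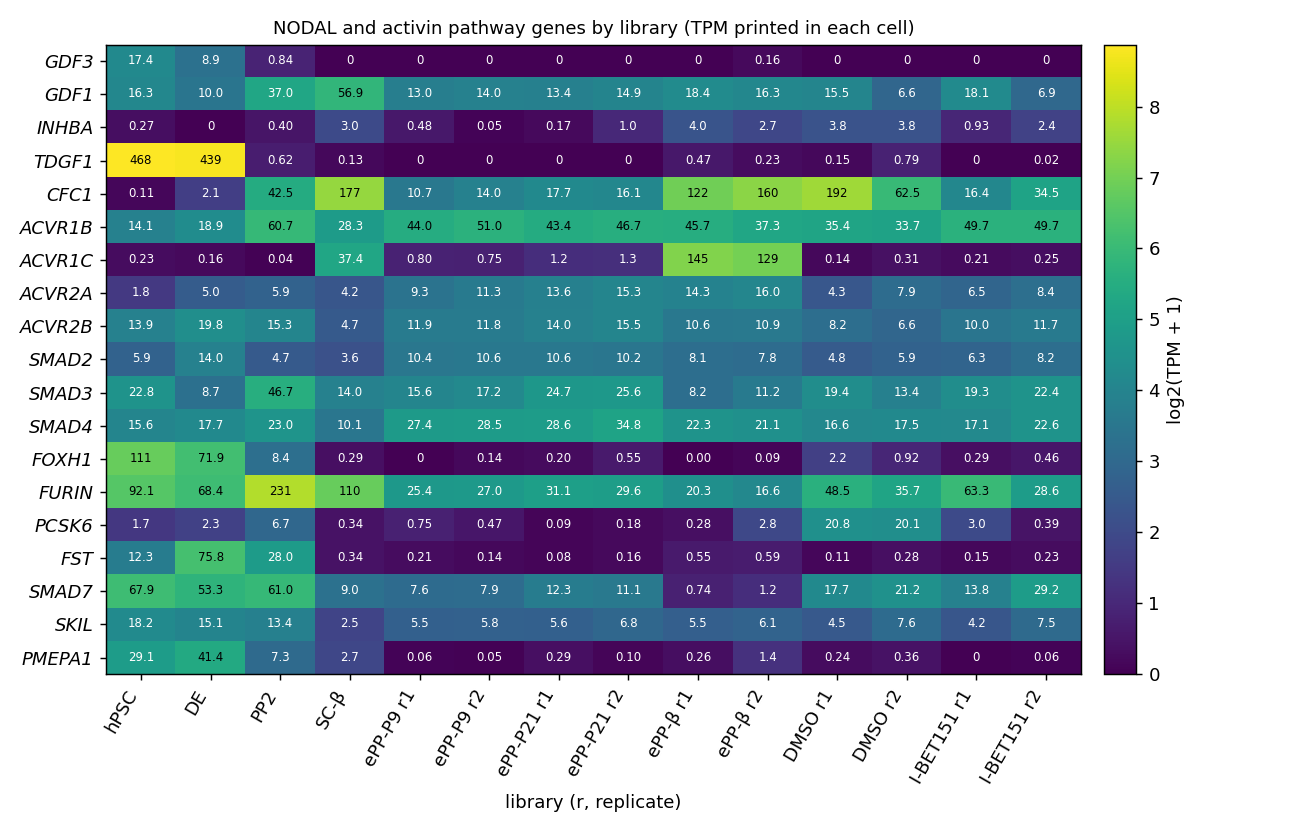
Heat map of 19 other genes of NODAL and activin signaling (rows) in the 14 libraries (columns, ordered by batch), with log2(TPM + 1) as colour and TPM printed. TDGF1 and FOXH1 are at their highest in hPSC and DE, ACVR1B is between 14.1 and 60.7 TPM in all libraries, and ACVR1C is above 100 TPM in the ePP-β libraries only.

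Most other genes of definitive endoderm were higher in DE with the 10, and most were then lower in PP2. Of 12 such genes, 11 had at least 1 TPM in hPSC or DE, and 10 were higher in DE, against 10.8% of all genes. By more than 3 log2 units, 9 were higher, against 1.07%. Their median was 5.80 log2 units, beside the 5.01 of the 10 genes. In PP2, 8 of the 12 were lower and 3 higher than in DE, against 9.83% lower and 27.2% higher of all genes. The higher genes were thus about as frequent as among all genes. LHX1, a homeobox factor of the organizer, was at 327 TPM in DE and 6.64 TPM in PP2, and OTX2, a homeobox factor of anterior tissue, at 232 TPM and 1.14 TPM. FGF17 went from 909 TPM to 0.901 TPM. HHEX, a factor of foregut endoderm, was at 132 TPM in DE and 476 TPM in PP2, and FOXA2, a pioneer factor of endoderm, at 82.4 TPM and 201 TPM. GATA4 differed by -0.15 log2 units. The third higher gene was FOXA1, at 0.47 TPM in DE and 173 TPM in PP2. SOX17 and CER1 were thus lower in PP2 like LHX1, OTX2 and FGF17, and unlike HHEX, FOXA2 and FOXA1.

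The DE library was also described by a list of 7 markers. The list was chosen with earlier results of these data known, so it gives no independent check of the label. All 7 (SOX17, CXCR4, FOXA2, GATA4, GATA6, CER1 and HHEX) were higher in DE than in hPSC by more than 3 log2 units, against 1.07% of all genes. Of the 7, 3 belong to the 10 genes. Of 7 pluripotency genes, 5 were lower in DE by more than 1 log2 unit, against 16.1% of all genes. ZFP42 missed the fold, and LIN28A, an RNA-binding protein, was at 460.0 TPM in hPSC and 625 TPM in DE. The summed level of the 7 pluripotency genes was 5257 TPM in hPSC, 1273 TPM in DE and 366 TPM in PP2, of which LIN28A alone took 276 TPM in PP2. POU5F1, the core pluripotency factor, was at 389 TPM in DE. NANOG, another core factor that also acts in early endoderm, was at 52.8 TPM in hPSC and 7.21 TPM in DE. Of the 8 genes of the mesoderm list, 5 had at least 1 TPM in hPSC or DE. In DE, 2 were higher and 1 was lower, against 10.8% and 16.1% of all genes. HAND1 was at 0.134 TPM in hPSC and 5.29 TPM in DE, PDGFRA at 0.955 TPM and 4.35 TPM, and KDR at 15.9 TPM and 4.94 TPM. MESP1 was at 1.22 TPM and TBX6 at 2.40 TPM in DE, and MSGN1 stayed under 1 TPM in every library.

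Over the 9 group means, EOMES, GSC and MIXL1 had the most similar patterns of the 9 genes compared, with Pearson correlations of log2(TPM + 1) of 0.995 for EOMES with GSC and 0.991 for EOMES with MIXL1. The secreted proteins formed the other close set, with 0.98 for CER1 with NODAL and 0.964 for NODAL with LEFTY2. SOX17 and CXCR4 correlated at 0.47. TBXT reached 10 TPM in no group and was left out of these correlations. The values describe 9 groups of which DE, with hPSC for the secreted proteins and ePP-β for CXCR4, held the high levels, and are given with no test.

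Among 11870 genes with a group mean of at least 10 TPM, the 5 protein-coding genes most like SOX17 were LHX1, CD300E, MYCT1, LZTS1 and LIX1, with correlations from 0.972 to 0.99. Among those most like NODAL were MAGEB17, ZIC2, ENSG00000283877 and ZIC5, from 0.995 to 0.996. ZIC2, a zinc finger factor, was at 97.6 TPM in hPSC, 179 TPM in DE and 0.173 TPM in PP2. Those most like CXCR4 were ANKRD13A, TRPA1, KDM7A, RNF11 and RAB18, with lower correlations, from 0.904 to 0.942.

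The replicated libraries addressed what was left of these genes in progenitors and in β-like cells. EOMES, GSC and NODAL were under 1 TPM in all 12 libraries outside hPSC and DE, and so was MIXL1. CER1 was under 1 TPM in 11 of them and at 1.07 TPM in ePP-β replicate 1. Only CXCR4 and LEFTY1 were at 1 TPM or more in every library.

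CXCR4 was the 1 gene of the 10 with a higher level outside DE. It was at 147 TPM and 226 TPM in the ePP-β libraries (186 ± 56.3, SD, n = 2), at 9.25 and 8.90 TPM in ePP-P9 (9.07 ± 0.249, SD, n = 2) and at 6.80 and 9.74 TPM in ePP-P21 (8.27 ± 2.08, SD, n = 2). Both ePP-β libraries were above all 4 ePP libraries, as was the case for 32.2% of all tested genes. The log2 fold change of ePP-β over ePP was 4.25 (SE 0.21, limma with Benjamini-Hochberg adjustment over all 18076 genes, adjusted p = 3.21e-05). In that comparison 3 of the 10 genes passed the filter on low values. CXCR4 and LEFTY1 were at 1 TPM or more in all 6 libraries and were called higher, and 0 genes were called lower. Of all tested genes, 17.9% were called higher and 9.86% lower, so a rise was common there. TBXT passed the filter through ePP-β alone, so its call carries no weight and it is given by its values. In SC-β, the other β-like cells, CXCR4 was at 10.0 TPM in 1 library of another batch, and batch and origin of the cells cannot be told apart there.

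The order of the CXCR4 levels was ePP-β, DE (105 TPM), I-BET151 (14.2 ± 6.71 TPM, SD, n = 2), PP2 (11.9 TPM), SC-β (10.0 TPM), ePP-P9, ePP-P21, DMSO (3.62 ± 0.514 TPM, SD, n = 2) and hPSC (2.43 TPM). The levels of PP2 and SC-β lay within the range of the I-BET151 libraries, and those of ePP-P9 lay within the range of ePP-P21. The order crosses 3 batches, PP2 and SC-β had 1 library each, and the ranges rest on 2 libraries. Neither a difference nor a likeness of these neighbours is therefore shown. CXCL12, the ligand of CXCR4, was at 0.273 TPM in DE, where its receptor was at 105 TPM. The ePP libraries held 0.677 to 1.43 TPM and the ePP-β libraries 200.0 and 231 TPM of it. CXCL12 entered the test through the ePP-β libraries, where it was high, so no fold and no p are given. ACKR3, a second receptor of CXCL12, was at 127 TPM in DE, and its log2 fold change in ePP-β over ePP was 1.46 (SE 0.24, limma, adjusted p = 0.00329).

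LEFTY1 was at 39.6 and 40.3 TPM in ePP-β, against 10.7 and 9.91 TPM in ePP-P9 and 6.70 and 6.97 TPM in ePP-P21. Its log2 fold change of ePP-β over ePP was 2.12 (SE 0.10, limma, adjusted p = 3.09e-05). LEFTY2 had 0.682 and 4.79 TPM in the ePP-β libraries and did not reach 1 TPM in the number of libraries needed for a test.

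TBXT was listed at 0 in all 4 ePP libraries and was at 1.50 and 3.13 TPM in ePP-β. No fold and no p are given, since the ePP level was listed at 0 and the gene entered the test through the group in which it was high. It was at 0.583 TPM in SC-β and listed at 0 in PP2, DMSO and I-BET151. TBXT overlaps a noncoding gene on the opposite strand that was not analysed here, and the use of strand in counting was not given.

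Of the 19 other pathway genes, 13 were tested in ePP-β against ePP, with 3 higher and 2 lower, against 17.9% higher and 9.86% lower of all tested genes. The higher genes were ACVR1C, CFC1 and INHBA. ACVR1C, the type I receptor ALK7 that serves NODAL and related ligands, was singled out after its values were seen. The ePP libraries held 0.749 to 1.31 TPM of it and the ePP-β libraries 145 and 129 TPM, a log2 fold change of 6.10 (SE 0.13, limma, adjusted p = 3.76e-06), and was at 37.4 TPM in SC-β. CFC1 rose by 3.19 log2 units (SE 0.16, limma, adjusted p = 3.08e-05). INHBA encodes the activin A subunit. Its ePP levels ran from 0.0495 to 1.02 TPM, against 3.97 and 2.74 TPM after differentiation to ePP-β. INHBA met the filter only with the help of ePP-β, the side where it was high, so its fold and p are left out. Its place among the higher genes carries no weight. The lower genes were SMAD7, an inhibitor of the pathway, which fell by 2.41 (SE 0.17, limma, adjusted p = 0.000107), and SMAD3, which fell by 1.01 (SE 0.15, limma, adjusted p = 0.00176). The ligand NODAL itself had 0.0479 and 0.0054 TPM in the ePP-β libraries. Of the 12 other definitive endoderm genes, 8 were tested, 0 were higher and 5 were lower, namely FOXA1, GATA4, GATA6, HHEX and WNT3, against 17.9% higher and 9.86% lower of all tested genes. At an unadjusted p under 0.05 there were 5, against 62.2% of all tested genes.

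**Figure D5:**
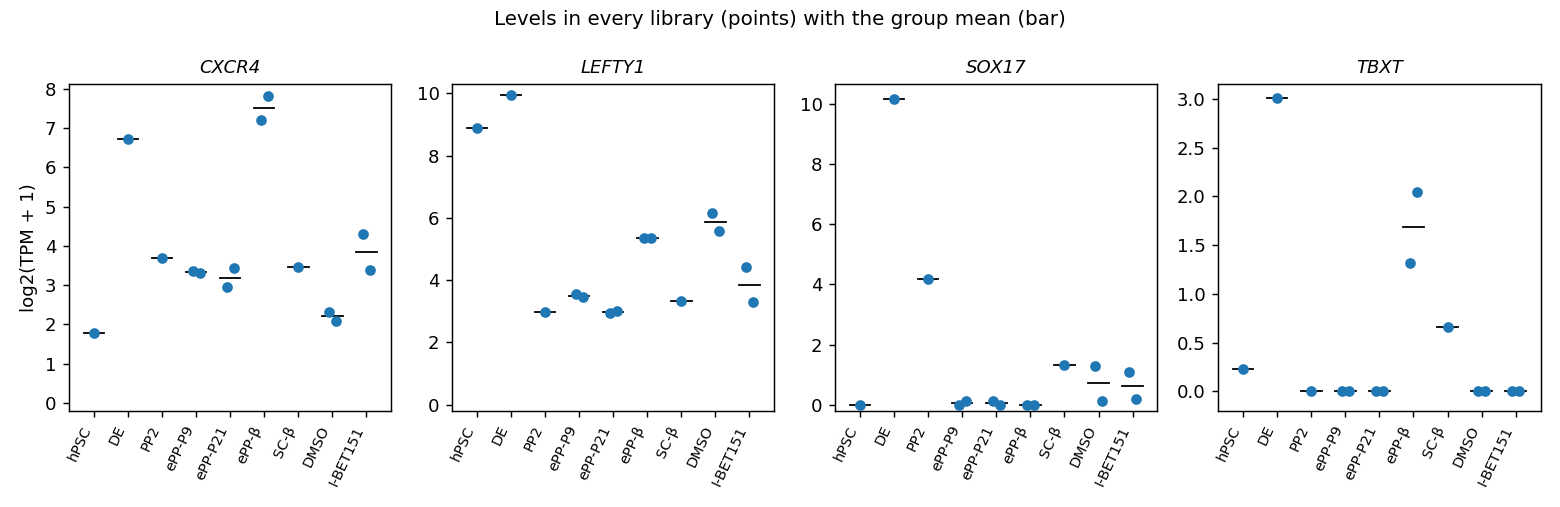
Levels of CXCR4, LEFTY1, SOX17 and TBXT, as log2(TPM + 1), in the 9 groups. Points are libraries and bars are group means, and a group with 1 point has 1 library. CXCR4 and LEFTY1 lie higher in both ePP-β libraries than in the 4 ePP libraries, and SOX17 differs within DMSO and within I-BET151 by replicate.

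Passage 21 was compared with passage 9 to see whether these genes changed with long culture. The ePP libraries of this comparison also served in the comparison with ePP-β. Only CXCR4 and LEFTY1 were tested and 0 were called, against 1.07% higher and 0.0569% lower of 15822 genes (limma). At an unadjusted p under 0.05 there was 1 of the 2, against 23% of all genes in either direction. The log2 fold change of CXCR4 was -0.14 (SE 0.21, limma, adjusted p = 0.739), and became 0.09 without ePP-P21 replicate 1. That of LEFTY1 was -0.53 (SE 0.16, limma, adjusted p = 0.134), and both ePP-P21 libraries were below both ePP-P9 libraries, as was the case for 13.1% of all genes. No change of these genes was shown at this spread between libraries.

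The I-BET151 comparison asked whether BET inhibition moved the same genes in progenitors. Of the 10, 4 were tested and 0 were called, against 0.00599% higher and 0.204% lower of 16687 genes (limma, Benjamini-Hochberg). These counts depended on the fit. When replicate number was added as a block, 828 genes were higher and 1466 lower, among them 1 and 2 of the 10 genes. No label says that a number marks a shared culture, so the fit without a block is used below. At an unadjusted p under 0.05 there were 3 of the 4, against 15.2% of all genes. For LEFTY1 the DMSO libraries held 70.7 and 46.3 TPM and the I-BET151 libraries 20.4 and 8.81 TPM, a log2 fold change of -2.01 (SE 0.49, limma, adjusted p = 0.163). For LEFTY2 these were 3.32 and 4.02 TPM against 0.453 and 0.330 TPM. LEFTY2 entered the test through the DMSO libraries alone, where it was high, so no fold and no p are given. Its place in the counts of this paragraph carries no weight. CXCR4 went the other way, from 3.99 and 3.26 TPM with DMSO to 18.9 and 9.42 TPM with I-BET151, a log2 fold change of 1.64 (SE 0.42, limma, adjusted p = 0.176). For each of the 3, the groups did not overlap, as was the case for 28.7% of all genes in the higher and 18% in the lower direction.

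Leaving out 1 library changed these calls in 2 cases. CXCR4 was called higher without I-BET151 replicate 2, at 2.11 log2 units (limma, adjusted p = 0.0121), and LEFTY1 was called lower without I-BET151 replicate 1, at -2.57 (limma, adjusted p = 0.00483), on the assumption that the lone library varies like the other group. CXCL12 and ACKR3 were not called either, with log2 fold changes of -1.67 (SE 0.53, limma, adjusted p = 0.241) and -1.74 (SE 0.39, limma, adjusted p = 0.144). The CXCL12 levels were 22.0 and 27.3 TPM with DMSO and 3.97 and 11.9 TPM with I-BET151. The other pathway genes gave 0 calls among 13 tested, with 2 at an unadjusted p under 0.05 (limma), and the other definitive endoderm genes 0 among 7, also with 2.

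SOX17 went with the replicate and not with the treatment in this experiment. Over 16687 genes, the differences between replicates 2 and 1 correlated at 0.675 between DMSO and I-BET151, so a split by replicate was not particular to SOX17. SOX17 was at 1.46 TPM in DMSO replicate 1 and 1.13 TPM in I-BET151 replicate 1, and at 0.0996 and 0.139 TPM in the replicate 2 libraries. Its log2 fold change was -0.08 (SE 0.53, limma, adjusted p = 0.961). The sign turned without I-BET151 replicate 2, to 0.37. SOX18 of the endothelial list was at 4.85 and 4.37 TPM in the replicate 1 libraries and at 0.569 and 0.55 TPM in the replicate 2 libraries. The summed endothelial list was 9.86 and 6.75 TPM in the replicate 1 libraries and 3.83 and 3.47 TPM in the replicate 2 libraries. TEK, an endothelial receptor, was split the other way, at 0.521 and 0.349 TPM in the replicate 1 libraries and 1.39 and 2.06 TPM in the replicate 2 libraries. CDH5 was at 0.674 and 0.733 TPM with DMSO and 0.0302 and 0.0285 TPM with I-BET151. PECAM1 and TIE1 were likewise lower in both I-BET151 libraries than in both DMSO libraries. The part of endothelial cells in the SOX17 level was not tested.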

How the data were processed

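Human embryonic stem cells and their derivatives were analysed in 14 RNA sequencing libraries, grouped by sample title. The authors isolated total RNA, made NEBNext Ultra libraries, aligned reads with HISAT2 2.1.0 to hg38 (GRCh38), quantified transcripts and deposited TPM values per gene. The annotation release and strand setting are not given in the sources used here. Of 60624 identifiers, 60370 matched GENCODE release 44 (GRCh38), which gave symbols. Listed TPM summed to 908685 to 985497 per library, with 14982 to 17578 genes at 1 TPM or more. TPM keeps no record of depth, so no counting interval is given and precision rests on 2 libraries per replicated group.

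Stages with 1 library were compared as differences of log2(TPM + 1) over genes with at least 1 TPM in either library, beyond 1 and beyond 3. Replicated groups were compared in R 4.3.3 by linear models of limma 3.58.1 with an eBayes trend (two-sided) on log2(TPM + 1), with at least 1 TPM in at least 2 libraries of the fit and only groups of 1 batch. For ePP-β, the reference was the average of both ePP group means. Calls needed a Benjamini-Hochberg adjusted p under 0.05 and a log2 fold change beyond 1. The study used a count test, which TPM values do not allow. Code was tested on simulated data. Alternatives were a pseudocount of 0.1, a filter of 5 TPM, no filter, quantile normalization, a replicate block, leaving out each library, and summed LEFTY1 and LEFTY2.

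The 10 genes and all lists were chosen with earlier results of these data known. Named genes were all 10, up to 8 per other list with the highest TPM in hPSC, DE or PP2, the 5 largest rises from hPSC to DE, and the 5 protein-coding genes most correlated with SOX17, NODAL and CXCR4. Genes named beyond this, such as ACVR1C, INHBA, ACVR2A, SMAD2 and WNT3, were chosen after their values were seen. Promoter windows are from RefSeq, and no protein sequence was used here. Results for some genes are not reported here.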

Additional observations from a re-analysis of the deposited data

How the results depend on the processing

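The 10 genes kept their direction in DE against hPSC and in PP2 against DE under every alternative run. After quantile normalization 9 of the 10 passed the fold in DE, since LEFTY1 came to 0.99 log2 units. In SC-β against PP2, a filter of 5 TPM left 1 lower gene in place of 2, CXCR4 turned to 0.16 after quantile normalization, and LEFTY1 turned to -0.30 when summed with LEFTY2, where LEFTY2 no longer passed the fold. Depth is unknown, stages with 1 library have no error, and an exact 0 can be a value never estimated. The causes of the changes below were not tested.

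Counts over all genes moved more. With a filter of 5 TPM, 1260 genes were higher and 1814 lower in DE against hPSC (1917 and 2872 as reported), 1216 were lower in PP2 against DE (1826), 4 were lower in ePP-P21 (9) and 2058 were higher in ePP-β (3237), since fewer genes enter. Quantile normalization gave 2974 higher and 3103 lower genes in PP2 against DE (5053 and 1826), 3 higher and 135 lower in I-BET151 (1 and 34), 10 higher and 3 lower in ePP-P21 (169 and 9), and 2866 lower in ePP-β (1783, beside 3237 higher), with medians of all genes of -0.03 in ePP-P21 (0.13) and -0.19 in ePP-β (-0.03). A pseudocount of 0.1 gave 0 higher and 0 lower genes in I-BET151. No filter gave 0 and 0 in both I-BET151 and ePP-P21.

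Leaving out each library in turn gave 7 to 283 higher and 100 to 751 lower genes in I-BET151, with 7 and 100 without DMSO replicate 1, 20 and 248 without DMSO replicate 2, 56 and 611 without I-BET151 replicate 1, and 283 and 751 without I-BET151 replicate 2. It gave 0 to 453 higher and 0 to 25 lower genes in ePP-P21, with 453 and 25 without ePP-P9 replicate 2, 0 and 0 without ePP-P21 replicate 1, and 0 and 2 without ePP-P21 replicate 2. In ePP-β it gave 1623 to 3273 higher and 1656 to 2001 lower genes, with 1765 higher without replicate 1 and 1623 without replicate 2 of ePP-β. In I-BET151, CXCR4 ranged from 1.18 to 2.11 log2 units and LEFTY1 from -2.57 to -1.44. In ePP-β, CXCR4 ranged from 3.94 to 4.56 and LEFTY1 from 2.09 to 2.15. TBXT passed the filter through the ePP-β libraries alone, so no range is given for it. SOX17 in I-BET151 ranged from -0.66 to 0.37 and was 0.05 after quantile normalization, and CXCR4 in ePP-P21 ranged from -0.37 to 0.09.

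Groups share replicate numbers, but nothing says that a number marks a shared culture. The differences between replicates 2 and 1 correlated at 0.675 across genes between DMSO and I-BET151 and at -0.00933 between ePP-P9 and ePP-P21. With a replicate block, 828 genes were higher and 1466 lower in I-BET151, among them 1 and 2 of the 10 genes. These were CXCR4 (limma, adjusted p = 0.0189), LEFTY1 (limma, adjusted p = 0.0078) and LEFTY2. LEFTY2 entered the test through the DMSO libraries alone, so no p is given for it. The block gave 64 higher and 2 lower genes in ePP-P21, and changed no call of the 10 genes in ePP-P21 or ePP-β.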

Other observations

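Genes outside the mesendoderm lists differed between the same libraries. AFP and TTR, which encode secreted proteins, were near 0 in DE, at 0.02 TPM and listed at 0, and were at 1646 TPM and 749 TPM in PP2. The highest TTR levels were those of the β-like cells, at 13015 and 15556 TPM in ePP-β and 24727 TPM in SC-β. TTR fell by 4.26 log2 units in I-BET151 against DMSO (SE 0.30, limma with Benjamini-Hochberg adjustment, adjusted p = 0.048), from 1049 and 1220 TPM to 55.6 and 60.7 TPM. The call was lost with a pseudocount of 0.1 and with no filter on low values, where 0 genes were lower in I-BET151. For AFP the DMSO libraries held 5526 and 5198 TPM and the I-BET151 libraries 617 and 1871 TPM, a log2 fold change of -2.32 that was not called (SE 0.59, limma, adjusted p = 0.175).

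POU3F2, a factor best known from neural cells, was at 36.2 to 55.2 TPM in the ePP libraries, at 0.623 TPM in PP2 and at 5.04 and 3.83 TPM in ePP-β. It fell by 3.15 log2 units from ePP to ePP-β (SE 0.14, limma, adjusted p = 2.17e-05). SOX1, ZIC1 and PAX3 of the same neural list stayed under 1 TPM in every library. NES, the remaining gene of that list, went the other way. Its levels were 14.3 to 23.9 TPM in the ePP libraries, 90.7 TPM in PP2 and 32.1 and 34.3 TPM in ePP-β. From ePP to ePP-β, NES rose by 0.8 log2 units (SE 0.1, limma, adjusted p = 0.000962), which stayed under the fold used. MESP1, a factor of early mesoderm, was at 38.8 TPM in SC-β and at 1.22 TPM in DE.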
